A study of Mus musculus with 14 samples.

Results

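Ch25h and 7 genes of the sterol synthesis pathway, Hmgcs1, Sqle, Insig1, Srebf2, Idi1, Fdft1 and Cyp51, were followed in mRNA sequencing of whole mouse ear tissue. The genes were taken by name, 8 of the 24062 rows deposited, and each name matched 1 row. They had been chosen by their TPM in these same samples, so their own differences are given as a description, without a test. All groups had lost their Langerhans cells, which are epidermal dendritic cells. LC-DTA mice lacked them long term, and LC-DTR mice had lost them after diphtheria toxin (DT), given 3 days before. Both sides of the ear received 1% croton oil or the vehicle alone, which was acetone and olive oil at 4 to 1, in 20 µl, and tissue was collected 6 h later. Croton oil is a skin irritant that contains phorbol esters. There were 4 LC-DTA croton oil, 3 LC-DTA vehicle, 4 LC-DTR croton oil and 3 LC-DTR vehicle samples. The labels name neither the promoter that drives the toxin or its receptor nor the age or sex of the mice, and do not say that samples came from separate animals. No ear with intact Langerhans cells and no unpainted ear was analysed here, so each genotype could be set only against the other. DT was named for LC-DTR only. The label numbers of LC-DTA (10575 to 10797) all lay below those of LC-DTR (10825 to 11098). Genotype, DT and label order thus cannot be told apart between the genotypes. Within LC-DTR, croton oil samples were numbered 10851 to 10854, and vehicle samples 10825, 10968 and 11098.

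Cells make cholesterol from acetyl-CoA through mevalonate, isoprenoids, squalene and lanosterol. SREBP2, the product of Srebf2, is a transcription factor held in the membrane of the endoplasmic reticulum by SCAP and the INSIG proteins while sterols are plentiful, and it turns on the genes of the pathway after it is cut free in the Golgi when sterols are scarce. CH25H adds a hydroxyl group to cholesterol. Its product, 25-hydroxycholesterol, binds INSIG and keeps SREBP2 from being processed, is a ligand of the LXR receptors, and is turned by CYP7B1 into a chemoattractant for cells that carry GPR183. CH25H is known as an enzyme that macrophages and other cells make in inflammation. In skin, keratinocytes and sebaceous glands are known to make sterols, which enter the barrier lipids and sebum.

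Expression was given as TPM, a unit scaled to transcript length and to the total of each sample, which keeps no record of sequencing depth. Each sample had 13733 to 14332 genes at 1 TPM or more, and 14693 genes with at least 1 TPM in at least 3 samples were tested. All 8 genes passed this filter. Cd207, which encodes the Langerhans cell marker langerin, was at 0.0567 to 1.88 TPM over the 14 samples. LC-DTR croton oil samples 2 and 3 stood apart from samples 1 and 4 of their group. Principal component 1 separated the treatments and explained 50.5% of the variance. On it samples 2 and 3 had scores of 5.26 and 8.06, and samples 1 and 4 had scores of 28.5 and 28.6. The summed TPM of 6 neutrophil genes was 339 and 261 in samples 2 and 3 and 769 and 726 in samples 1 and 4. In bulk tissue, fewer cells of a type and less RNA per cell cannot be told apart. Differences are given on the log2(TPM + 1) scale as log2 difference ± SE from limma. They run croton oil minus vehicle, or LC-DTA minus LC-DTR.

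The promoter windows of 6 of the 8 genes were found in RefSeq on GRCm38.p6 and run from 250 bases before to 50 after the gene's start. Those of Ch25h, Hmgcs1, Idi1 and Cyp51 are shown. Ch25h had the largest response to croton oil of the 8, Hmgcs1 encodes the enzyme at the entry to the pathway, and Idi1 and Cyp51 had all LC-DTA croton oil ears above all other ears. Capitals mark matches, on either strand, to TGACGTCA (the cAMP response element), TCACNCCAC (the letters of a known sterol regulatory element form), CCAAT (the CCAAT box, read by NF-Y) or GGGCGG (the GC box, read by Sp1).
Ch25h promoter, chr19:34475099-34475398, minus strand: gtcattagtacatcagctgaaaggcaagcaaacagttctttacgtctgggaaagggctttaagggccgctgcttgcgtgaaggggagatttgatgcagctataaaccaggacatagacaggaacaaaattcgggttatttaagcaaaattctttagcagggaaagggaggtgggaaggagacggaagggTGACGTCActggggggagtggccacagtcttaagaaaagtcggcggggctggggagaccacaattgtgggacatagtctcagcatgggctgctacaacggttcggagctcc
Hmgcs1 promoter, chr13:119690101-119690400, plus strand: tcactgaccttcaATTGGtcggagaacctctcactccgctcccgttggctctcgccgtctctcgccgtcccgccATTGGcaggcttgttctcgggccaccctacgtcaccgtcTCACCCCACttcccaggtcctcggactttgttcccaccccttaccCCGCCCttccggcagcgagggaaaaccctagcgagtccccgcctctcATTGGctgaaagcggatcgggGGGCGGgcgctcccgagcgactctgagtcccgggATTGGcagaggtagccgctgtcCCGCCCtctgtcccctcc
Idi1 promoter, chr13:8885356-8885655, plus strand: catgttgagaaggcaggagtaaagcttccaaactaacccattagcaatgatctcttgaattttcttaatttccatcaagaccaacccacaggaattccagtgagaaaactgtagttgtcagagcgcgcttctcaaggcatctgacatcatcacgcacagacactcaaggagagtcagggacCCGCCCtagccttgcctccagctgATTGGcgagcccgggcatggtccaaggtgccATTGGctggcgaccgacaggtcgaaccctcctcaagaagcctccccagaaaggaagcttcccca
Cyp51 promoter, chr5:4104648-4104947, minus strand: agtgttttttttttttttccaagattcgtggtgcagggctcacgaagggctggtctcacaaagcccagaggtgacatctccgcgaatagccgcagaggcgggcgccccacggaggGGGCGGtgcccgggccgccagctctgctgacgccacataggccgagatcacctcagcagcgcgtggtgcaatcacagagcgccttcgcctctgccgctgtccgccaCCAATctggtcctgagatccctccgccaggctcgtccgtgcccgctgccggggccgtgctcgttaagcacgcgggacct
All 5 windows of sterol genes held CCAAT and GGGCGG, the letters that 37.4% and 35.7% of 32851 promoter windows held. The Ch25h window held neither. It held TGACGTCA, at positions 190 to 197 from its 5′ end, as did 1.79% of all windows. TCACNCCAC was in the Hmgcs1 window, at positions 114 to 122, and in 1.24% of all windows. TGANTCA, the AP-1 site, was in none of the 6 windows and in 7.81% of all. No match overlapped another motif. A match is a run of letters in these windows and was not tested as a binding site.

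Ch25h, the only gene of the 8 outside the SREBP2 pathway, is a gene with 1 exon on chromosome 19, from 34473778 to 34475164 (GRCm38, minus strand). It had the largest response of the 8 in both genotypes. It had 67.9, 71.5, 59.8 and 69.1 TPM in LC-DTA croton oil ears, against 1.81, 2.29 and 1.97 TPM in LC-DTA vehicle ears. In LC-DTR it had 39.3, 23.6, 25.8 and 33.5 TPM in croton oil ears, against 2.34, 5.90 and 2.10 TPM in vehicle ears. Every croton oil ear lay above every vehicle ear, and every LC-DTA croton oil ear lay above every LC-DTR croton oil ear, while the vehicle groups overlapped. The ratio of the group means was 33.1 in LC-DTA and 8.87 in LC-DTR, and the log2 differences were 4.49 ± 0.23 and 2.90 ± 0.23. Among the 14693 genes tested, Ch25h had the 8th largest log2 increase in LC-DTA and the 23rd largest in LC-DTR. Its response was larger in LC-DTA by 1.59 ± 0.33.

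Single samples moved the LC-DTR values of Ch25h. Sample 2 of LC-DTR vehicle, at 5.90 TPM, was the highest of the 6 vehicle ears. Without it the Ch25h response in LC-DTR was 3.27, the difference of the responses was 1.23, and the difference between the genotypes under vehicle was -0.09, against -0.46 ± 0.25 with it. Samples 2 and 3 of LC-DTR croton oil, which stood apart, were the lowest of the 8 croton oil ears. Without them the LC-DTR response was 3.17, the genotype difference after croton oil was 0.87, against 1.13 ± 0.21 with them, and the difference of the responses was 1.32.

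**Figure D1:**
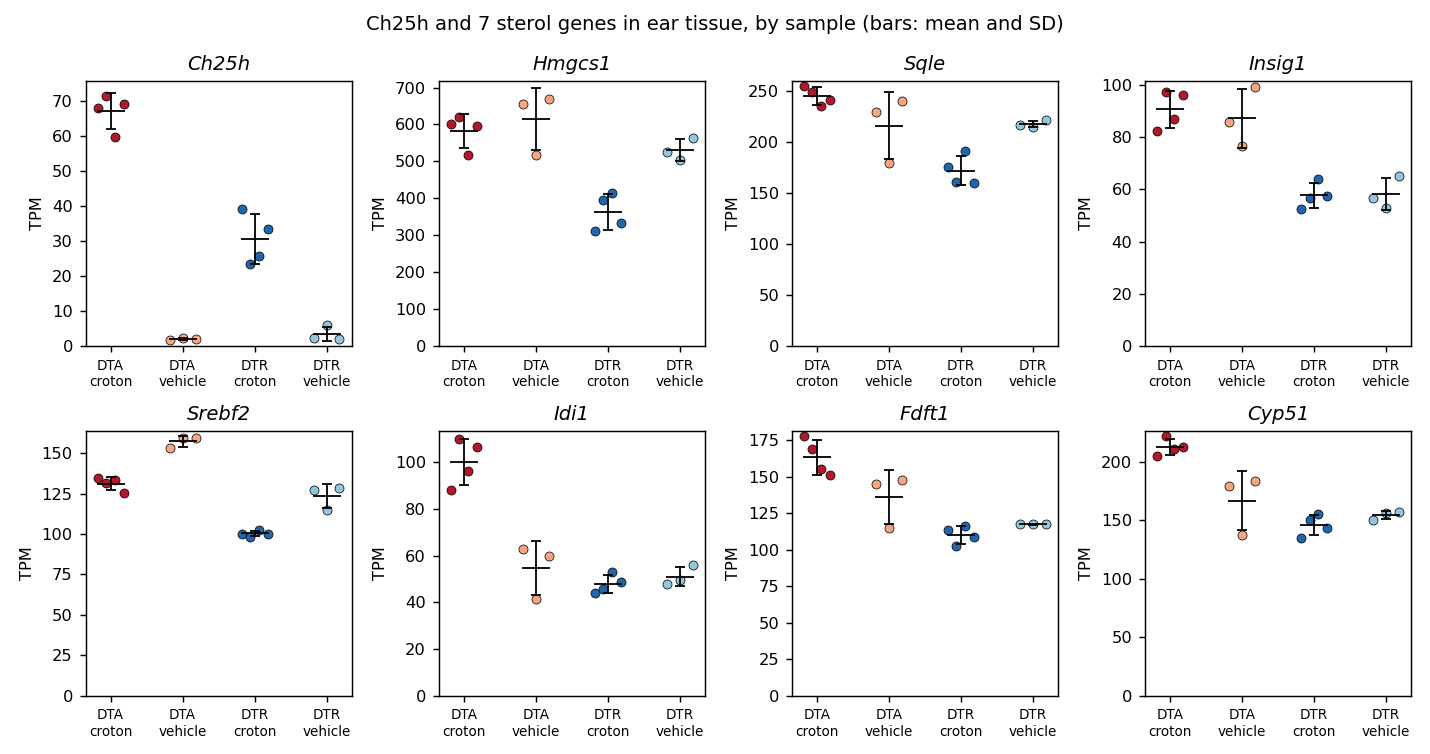
TPM of each of the 8 genes in every sample, with 1 panel a gene and a vertical axis from 0. Points are samples in the 4 groups of genotype and treatment, and bars are the group mean and SD. Ch25h reaches 59.8 to 71.5 TPM in LC-DTA croton oil ears and 23.6 to 39.3 TPM in LC-DTR croton oil ears, and the LC-DTA croton oil points of the other 7 genes lie above those of LC-DTR croton oil.

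The regulators came next, and both had larger log2 differences between the genotypes than between the treatments. Srebf2, which encodes SREBP2 (chromosome 15, 82147181 to 82205379), had 135, 131, 133 and 126 TPM in LC-DTA croton oil ears and 153, 159 and 159 TPM in LC-DTA vehicle ears. It had 100.3, 98.3, 103 and 100.02 TPM in LC-DTR croton oil ears and 127, 115 and 129 TPM in LC-DTR vehicle ears. It was lower after croton oil without overlap in both genotypes, by near equal amounts (-0.26 ± 0.05 in LC-DTA and -0.30 ± 0.05 in LC-DTR), and higher in LC-DTA than in LC-DTR without overlap under both treatments (0.38 ± 0.05 after croton oil and 0.35 ± 0.05 under vehicle). LC-DTA croton oil and LC-DTR vehicle ears overlapped. The miRNA gene Mir33 lies within Srebf2 on the same strand and was listed at 0.319 TPM or below.

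Insig1 encodes the protein that retains SCAP and is itself a target of SREBP2 (chromosome 5, 28071363 to 28078662). It had 82.4, 97.2, 86.8 and 96.2 TPM in LC-DTA croton oil ears, and 85.7, 76.6 and 99.2 TPM in LC-DTA vehicle ears. In LC-DTR it had 52.5, 56.8, 64.1 and 57.4 TPM in croton oil ears, and 56.8, 52.8 and 65.0 TPM in vehicle ears. Croton oil and vehicle ears overlapped in both genotypes, with log2 differences of 0.06 ± 0.10 in LC-DTA and -0.01 ± 0.10 in LC-DTR. Every LC-DTA ear lay above every LC-DTR ear, by 0.64 ± 0.09 after croton oil and 0.57 ± 0.11 under vehicle. Of the 8 genes it was the one whose 2 genotypes did not overlap in either treatment while its treatments overlapped in both genotypes.

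Of the enzymes, Hmgcs1 acts first. It joins acetyl-CoA to acetoacetyl-CoA, and lies on chromosome 13 from 119690379 to 119708260. It had 600.1, 619, 517 and 595 TPM in LC-DTA croton oil ears, against 656, 518 and 669 TPM in LC-DTA vehicle ears. It had 312, 394, 414 and 334 TPM in LC-DTR croton oil ears, against 525, 503 and 563 TPM in LC-DTR vehicle ears. LC-DTR croton oil ears lay below all the others, at -0.55 ± 0.11 against LC-DTR vehicle, and the other 3 groups overlapped. Without LC-DTR croton oil samples 2 and 3 that difference was -0.71.

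Idi1, which interconverts the isoprenoid building blocks (chromosome 13, 8885501 to 8892451), had the largest croton oil response of the 7 sterol genes in LC-DTA. It had 88.2, 109.9, 96.0 and 106 TPM in LC-DTA croton oil ears, against 62.9, 41.4 and 60.0 TPM in LC-DTA vehicle ears. It had 44.2, 45.6, 52.9 and 48.7 TPM in LC-DTR croton oil ears, against 48.0, 49.3 and 55.8 TPM in LC-DTR vehicle ears. LC-DTA croton oil ears lay above all the others (0.88 ± 0.13 in LC-DTA), and the other 3 groups overlapped (-0.09 ± 0.13 in LC-DTR).

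Fdft1, squalene synthase, joins 2 farnesyl groups into squalene (chromosome 14, 63145150 to 63179578, minus strand). It had 178, 169, 155 and 151.5 TPM in LC-DTA croton oil ears, against 145, 115 and 148 TPM in LC-DTA vehicle ears. It had 113, 102, 116 and 108 TPM in LC-DTR croton oil ears, against 117, 118 and 117 TPM in LC-DTR vehicle ears. Its groups did not overlap in either genotype, and the order was opposite, with croton oil ears above vehicle ears in LC-DTA (0.27 ± 0.08) and below them in LC-DTR (-0.10 ± 0.08). The smaller of these differences is close to its SE. The gene overlaps Ctsb on the opposite strand, which reached 284 TPM, and whether reads were counted by strand is not given in the sources used here, so its values are uncertain.

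Sqle, squalene epoxidase, carries out the first oxygenation step (chromosome 15, 59315077 to 59331192). It had 255, 249, 236 and 241 TPM in LC-DTA croton oil ears, against 229, 179 and 241 TPM in LC-DTA vehicle ears. It had 175, 161, 191 and 160.2 TPM in LC-DTR croton oil ears, against 216, 215 and 221 TPM in LC-DTR vehicle ears. Croton oil ears lay below vehicle ears in LC-DTR (-0.34 ± 0.09), and in LC-DTA the groups overlapped (0.19 ± 0.09).

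Cyp51 removes a methyl group from lanosterol (chromosome 5, 4081145 to 4104746, minus strand). It had 205, 222, 211 and 213 TPM in LC-DTA croton oil ears, against 179, 138 and 183 TPM in LC-DTA vehicle ears. It had 134, 150.0, 155 and 144 TPM in LC-DTR croton oil ears, against 150.4, 156 and 157 TPM in LC-DTR vehicle ears. As with Idi1, LC-DTA croton oil ears lay above all the others (0.36 ± 0.08 in LC-DTA), and croton oil and vehicle ears overlapped in LC-DTR (-0.08 ± 0.08). Cyp51 overlaps Akap9 on the opposite strand, which was at 22.9 TPM or below, so its values are uncertain in the same way.

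After croton oil in LC-DTA, 4 of the 8 genes (Ch25h, Idi1, Fdft1 and Cyp51) had all croton oil ears above all vehicle ears, 1 (Srebf2) had them below, and 3 overlapped. Over all genes tested, croton oil ears lay above vehicle ears without overlap for 26.1% and below them for 36.9%, together 63%. In LC-DTR 1 gene (Ch25h) had all croton oil ears above, 4 (Hmgcs1, Sqle, Srebf2 and Fdft1) had them below and 3 overlapped, where 20.6% of all genes lay above and 27.1% below, together 47.7%. As the 8 genes were picked with these values in view, nothing is read from these counts or from those between the genotypes. The 2 comparisons share no sample. Ch25h lay above in both, Srebf2 below in both, and Fdft1 in opposite directions, where 13.7%, 16.7% and 3.21% of all genes did so. The median log2 difference of the 7 sterol genes was 0.19 in LC-DTA, where that of all genes was -0.09, and -0.10 in LC-DTR, where that of all genes was -0.06. Without LC-DTA vehicle sample 2, the lowest of its group in 6 of the 7 genes, the LC-DTA median was 0.06, and the LC-DTA differences of Cyp51, Fdft1 and Sqle were 0.23, 0.15 and 0.06. That sample was the lowest of its group in 31.7% of all genes tested.

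The genotype differences of Ch25h and of the enzymes among the 8 genes were larger after croton oil than under vehicle. Those of Insig1 and Srebf2 were of similar size under both treatments. After croton oil every LC-DTA ear lay above every LC-DTR ear for all 8 genes, where LC-DTA lay above for 29.6% of all genes tested and below for 15.7%, together 45.2%. The differences ran from 0.38 ± 0.05 for Srebf2 to 1.05 ± 0.12 for Idi1 and 1.13 ± 0.21 for Ch25h, and those of Hmgcs1, Insig1, Fdft1, Cyp51 and Sqle were 0.69 ± 0.10, 0.64 ± 0.09, 0.56 ± 0.08, 0.54 ± 0.08 and 0.51 ± 0.08. The median of the 7 sterol genes was 0.56, against 0.09 for all genes. Under vehicle 2 of the 8, Insig1 and Srebf2, did not overlap, both with LC-DTA above, where 31.4% of all genes lay above and 11.1% below, together 42.5%. Hmgcs1 and Fdft1 overlapped at 0.20 ± 0.12 and 0.20 ± 0.09 (0.32 each without LC-DTA vehicle sample 2), and Sqle, Idi1 and Cyp51 lay between -0.02 and 0.10.

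The difference of the responses, LC-DTA minus LC-DTR, was positive for all 8 genes. It was 0.97 ± 0.18 for Idi1, 0.53 ± 0.13 for Sqle, 0.48 ± 0.16 for Hmgcs1, 0.44 ± 0.12 for Cyp51 and 0.36 ± 0.12 for Fdft1. It was smaller than its SE for Insig1 (0.07 ± 0.14) and Srebf2 (0.04 ± 0.07), and that of Insig1 was -0.02 without LC-DTA vehicle sample 2. The genotype differences of the 5 enzymes were thus larger after croton oil than under vehicle, and those of the 2 regulators were similar under both treatments. Without LC-DTA vehicle sample 2, the vehicle differences of Hmgcs1 and Fdft1 were larger, and the LC-DTA responses of Cyp51, Fdft1 and Sqle were smaller. These values too were in view when the genes were chosen.

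The scaling of the samples mattered most between the genotypes. Limma called 5041 genes higher and 2647 lower in LC-DTA after croton oil on the values as deposited, 3686 and 3709 after median ratio rescaling, and 3740 and 3730 after quantile normalization. Under vehicle it called 2810 and 785 as deposited, 1728 and 1712 after median ratio rescaling, and 1616 and 1772 after quantile normalization. In LC-DTA, croton oil against vehicle, it called 3552 higher and 5067 lower as deposited and 4388 and 4112 after median ratio rescaling. Under vehicle, median ratio rescaling moved the median of all genes by -0.11 on the log2 scale, and the small positive differences of Cyp51 and Idi1 turned to -0.02 and -0.04. It also turned the near-zero responses of Hmgcs1 in LC-DTA and Insig1 in LC-DTR to 0.02 and 0.05. All 8 genes kept a positive genotype difference after croton oil and a positive difference of the responses under both rescalings.

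**Figure D2:**
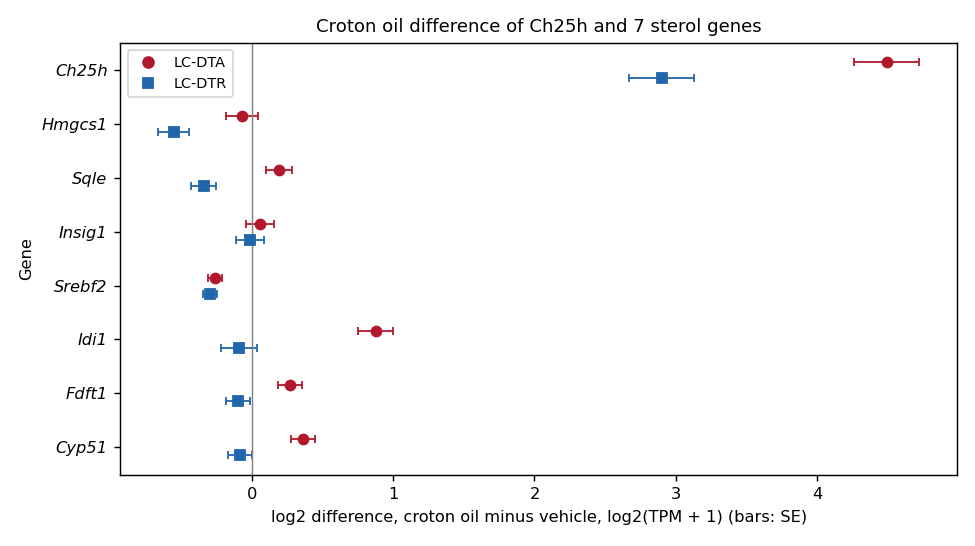
Log2 difference of croton oil against vehicle, on the log2(TPM + 1) scale, for the 8 genes, with bars of 1 SE. Circles are LC-DTA and squares LC-DTR. Ch25h lies at 4.49 and 2.90, and the 7 sterol genes lie between -0.26 and 0.88 in LC-DTA and between -0.55 and -0.01 in LC-DTR.

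The other 16 enzymes of the pathway were tested with limma over all 14693 genes. Of all genes, limma called 58.7% for croton oil against vehicle in LC-DTA and 51.6% in LC-DTR, 52.3% between the genotypes after croton oil and 24.5% under vehicle, and 23.1% for the difference of the responses. Most fell after croton oil in LC-DTR, and most did not pass the test in LC-DTA. In LC-DTR 10 of 16 fell, 2 rose and 4 were not called, where 29.5% of all genes fell and 22.1% rose, and their median was -0.40 against -0.06 for all genes. In LC-DTA 5 of 16 rose, 1 fell and 10 were not called, where 24.2% of all genes rose and 34.5% fell, and their median was 0.12 against -0.09. These lists were drawn up with earlier results of these samples known, so the counts are no independent evidence.

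Mvk, mevalonate kinase, had 92.8, 83.6, 86.0 and 85.0 TPM in LC-DTA croton oil ears and 91.3, 86.2 and 89.1 TPM in LC-DTA vehicle ears. It had 51.8, 53.6, 63.5 and 50.03 TPM in LC-DTR croton oil ears and 81.5, 84.1 and 93.2 TPM in LC-DTR vehicle ears. Mvk fell in LC-DTR, at -0.65 ± 0.08 (limma adjusted p = 2.33e-05), was not called in LC-DTA, and its responses differed by 0.62 ± 0.11 (limma adjusted p = 0.00201). Acat2, the thiolase that makes acetoacetyl-CoA for HMGCS1, also fell in LC-DTR (-0.60 ± 0.11, limma adjusted p = 0.000678), and its responses differed by 0.76 ± 0.16 (limma adjusted p = 0.00505). Mvd, the decarboxylase that makes isopentenyl diphosphate, fell in LC-DTR too (-0.57, limma adjusted p = 0.00224). Pmvk, phosphomevalonate kinase, rose in LC-DTA by 0.37 (limma adjusted p = 0.000585). In LC-DTR it was not called, though all croton oil ears (117 to 123 TPM) lay above all vehicle ears (103 to 116 TPM). Its difference of the responses was not called.

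Fdps, farnesyl diphosphate synthase, supplies the substrate of FDFT1. It had 336, 328, 304 and 295 TPM in LC-DTA croton oil ears and 304, 251 and 306 TPM in LC-DTA vehicle ears. It had 178, 194, 199 and 175 TPM in LC-DTR croton oil ears and 252, 261 and 278 TPM in LC-DTR vehicle ears. Fdps fell in LC-DTR (-0.50 ± 0.08, limma adjusted p = 0.000178), was not called in LC-DTA, and was higher in LC-DTA than in LC-DTR after croton oil by 0.75 ± 0.07 (limma adjusted p = 5.68e-06). Ggps1, which extends the isoprenoid chain for protein prenylation and lies off the path to cholesterol, averaged 23.05 ± 1.45 and 25.3 ± 0.599 TPM in LC-DTA croton oil and vehicle ears and 23.6 ± 1.29 and 26.2 ± 1.85 TPM in LC-DTR croton oil and vehicle ears. It was called in none of the 5 comparisons.

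Of the enzymes after squalene, Lss, lanosterol synthase, rose in LC-DTA by 0.33 (limma adjusted p = 0.00189) and was not called in LC-DTR. Nsdhl, which acts in the removal of the C4 methyl groups, had 66.1, 61.9, 58.7 and 53.9 TPM in LC-DTA croton oil ears and 60.3, 47.5 and 58.2 TPM in LC-DTA vehicle ears. It had 34.1, 33.1, 37.8 and 28.4 TPM in LC-DTR croton oil ears and 52.2, 56.7 and 59.0 TPM in LC-DTR vehicle ears. Nsdhl fell in LC-DTR (-0.74 ± 0.10, limma adjusted p = 7.63e-05), and its responses differed by 0.86 ± 0.14 (limma adjusted p = 0.00177), the largest such difference among the 16. Msmo1, which oxidizes the C4 methyl groups, and Ebp, the sterol isomerase, fell in LC-DTR as well, at -0.47 and -0.33 (limma adjusted p = 0.0114 and 0.00752).

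Other late enzymes went different ways. Tm7sf2, a C14 sterol reductase, was the enzyme that fell in both genotypes (-0.52 in LC-DTA and -0.51 in LC-DTR, limma adjusted p = 0.00201 and 0.00294). Dhcr7, which makes cholesterol from 7-dehydrocholesterol, was the 1 enzyme called lower in LC-DTA than in LC-DTR under both treatments, at -0.37 after croton oil and -0.51 under vehicle (limma adjusted p = 0.000797 and 0.00123). It had 174, 151.1, 145 and 162 TPM in LC-DTA croton oil, 129, 140.1 and 135 TPM in LC-DTA vehicle, 196, 208, 220.5 and 192 TPM in LC-DTR croton oil and 197, 209.8 and 174 TPM in LC-DTR vehicle ears. Every LC-DTA ear lay below every LC-DTR ear. Hsd17b7, which reduces the 3-keto sterol, had 194, 226, 164 and 229 TPM in LC-DTA croton oil and 132, 113 and 142 TPM in LC-DTA vehicle ears. Hsd17b7 rose in LC-DTA by 0.64 (limma adjusted p = 0.000405). In LC-DTR it rose by 0.34 (limma adjusted p = 0.0269), a call lost without LC-DTR vehicle sample 3 or LC-DTR croton oil sample 2 or 3, at limma adjusted p of 0.0617 to 0.0994. The small fall of Sc5d in LC-DTR (-0.17, limma adjusted p = 0.025) was lost without LC-DTR vehicle sample 1 or 2 or LC-DTR croton oil sample 2 or 4, at limma adjusted p of 0.0574 to 0.0763. The small rise of Dhcr7 in LC-DTA (0.22, limma adjusted p = 0.023) was lost without LC-DTA vehicle sample 1 or 3 or LC-DTA croton oil sample 1 or 4, at limma adjusted p of 0.0511 to 0.0871.

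Between the genotypes, 9 of the 16 were higher and 1 lower in LC-DTA after croton oil, where 34.3% and 18% of all genes were, and 0 were higher and 2 lower under vehicle, where 19.1% and 5.34% were and 2 enzymes were higher at an unadjusted p under 0.05. The responses of 8 of the 16 differed, all in the positive direction, where 10.5% of all genes did so, and 8 were not called. Without LC-DTA vehicle sample 2, which was the lowest of its group in 13 of the 16 enzymes, 4 were called. Ebp was among those lost, at limma adjusted p = 0.0636. The calls of Mvd, Lss and Msmo1 (0.54, 0.31 and 0.59, limma adjusted p = 0.046, 0.0471 and 0.0446) were lost without most of the single samples, at limma adjusted p of up to 0.129. Those of Acat2, Mvk, Fdps and Nsdhl were kept without any single sample.

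**Figure D3:**
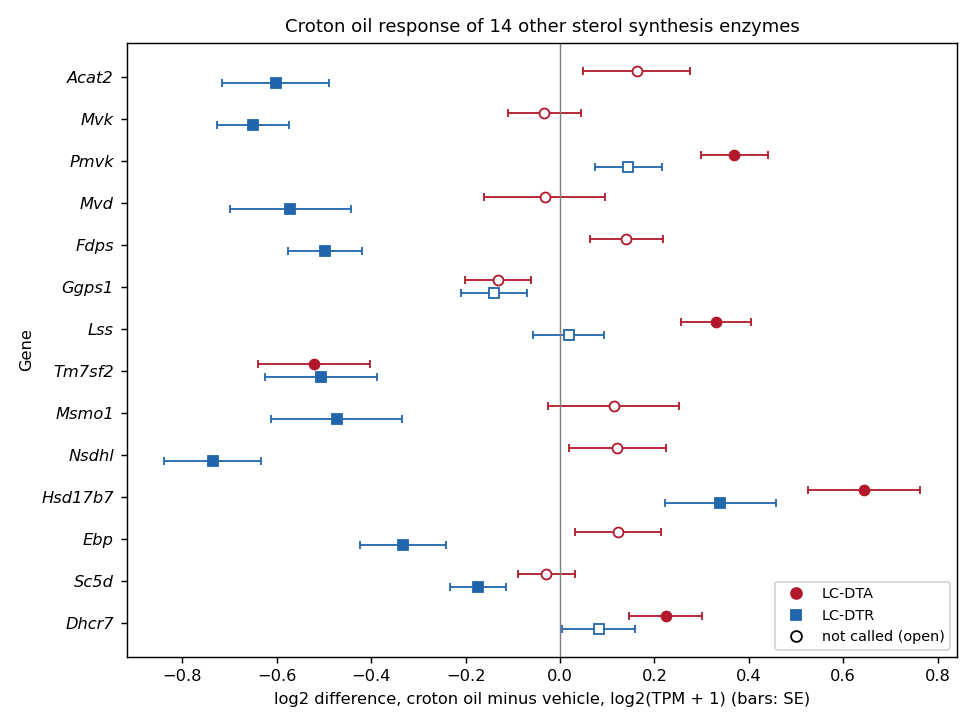
Log2 difference of croton oil against vehicle, on the log2(TPM + 1) scale, for 14 of the 16 other enzymes of sterol synthesis, with bars of 1 SE. Circles are LC-DTA, squares LC-DTR, and open symbols were not called by limma. Hsd17b7 lies highest in LC-DTA, at 0.64, and Nsdhl lowest in LC-DTR, at -0.74.

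Genes of SREBP processing, sterol sensing and uptake did not move as 1 group. Of 13, 2 rose and 6 fell after croton oil in LC-DTA, where 24.2% of all genes rose and 34.5% fell. In LC-DTR 3 rose and 4 fell, close to the 22.1% and 29.5% of all genes. Srebf1, which encodes SREBP1, the driver of fatty acid synthesis and itself a target of LXR, had 91.1, 83.9, 73.8 and 83.0 TPM in LC-DTA croton oil ears, against 159, 171 and 155 TPM in LC-DTA vehicle ears. It had 81.6, 82.9, 94.9 and 85.1 TPM in LC-DTR croton oil ears, against 162, 153 and 152 TPM in LC-DTR vehicle ears. Srebf1 thus fell alike in both genotypes, at -0.96 ± 0.07 in LC-DTA and -0.85 ± 0.07 in LC-DTR (limma adjusted p = 9.32e-07 and 2.19e-06), and its difference of responses was not called.

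Among the genes that retain or cut SREBP2, Mbtps1, the site-1 protease, fell in LC-DTA (-0.46, limma adjusted p = 2.4e-05). In LC-DTR limma called it lower as well, at 76.4 to 82.2 TPM in croton oil ears against 83.9 to 93.8 TPM in vehicle ears. That LC-DTR call was kept under 17 of 26 alternatives. Mbtps2, the site-2 protease, rose by 0.32 in LC-DTA and by 0.25 in LC-DTR (limma adjusted p = 0.00244 and 0.0113). Insig2, the second INSIG gene, averaged 93.4 ± 10.05 TPM in LC-DTA croton oil and 122 ± 13.4 TPM in LC-DTR croton oil ears, lower in LC-DTA by 0.38 on the log2 scale (limma adjusted p = 0.00716). Under vehicle limma called it lower in LC-DTA too, at 91.4 to 93.6 TPM against 107 to 147 TPM in LC-DTR. Insig1 lay higher in LC-DTA under both treatments.

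Of the genes that move cholesterol, Npc1, which exports it from lysosomes, had 33.6, 35.5, 32.8 and 36.1 TPM in LC-DTA croton oil ears, against 56.9, 69.4 and 55.4 TPM in LC-DTA vehicle ears, and fell there (-0.79, limma adjusted p = 4.93e-05). In LC-DTR its call (-0.29, limma adjusted p = 0.0386) was lost without any 1 of 5 samples, at limma adjusted p of 0.0725 to 0.168. Scarb1, the HDL receptor, had 26.5, 27.3, 26.1 and 27.6 TPM in LC-DTA croton oil and 37.8, 45.0 and 49.97 TPM in LC-DTA vehicle ears. It had 28.7, 50.001, 37.6 and 32.0 TPM in LC-DTR croton oil and 34.7, 30.5 and 28.4 TPM in LC-DTR vehicle ears. Scarb1 fell in LC-DTA (-0.69, limma adjusted p = 0.00125), and its responses differed by -0.91 ± 0.21 (limma adjusted p = 0.00841).

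Around CH25H, 8 of 9 oxysterol genes passed the filter (Cyp7a1 did not). In LC-DTA 3 rose and 3 fell after croton oil, where 24.2% of all genes rose and 34.5% fell, and in LC-DTR 2 rose and 1 fell, where 22.1% and 29.5% of all genes did, so the list's counts lay near the shares of all genes. Cyp27a1, which makes 27-hydroxycholesterol, had 7.27, 8.61, 6.44 and 6.46 TPM in LC-DTA croton oil ears, against 14.4, 20.9 and 16.5 TPM in LC-DTA vehicle ears. It had 12.4, 14.9, 10.8 and 11.5 TPM in LC-DTR croton oil ears, against 16.9, 13.1 and 10.5 TPM in LC-DTR vehicle ears. Cyp27a1 fell in LC-DTA (-1.15 ± 0.16, limma adjusted p = 4.64e-05), was not called in LC-DTR, and its responses differed by -1.05 ± 0.23 (limma adjusted p = 0.00576). Cyp46a1, the 24-hydroxylase, at 2.85 TPM or below in every ear, fell in LC-DTA (-1.02 ± 0.13, limma adjusted p = 3.24e-05). Cyp39a1, which acts on 24-hydroxycholesterol, fell in both genotypes (-1.31 ± 0.20 in LC-DTA and -0.77 in LC-DTR, limma adjusted p = 8.65e-05 and 0.00512). Sult2b1, which sulfates cholesterol and oxysterols and is an enzyme of differentiating keratinocytes, rose in both (0.74 ± 0.11 and 0.49, limma adjusted p = 6.84e-05 and 0.00202).

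Cyp7b1 and Gpr183, the enzyme and the receptor downstream of 25-hydroxycholesterol, were added to the named genes after their values were seen. Cyp7b1 had 8.67, 11.8, 12.8 and 12.1 TPM in LC-DTA croton oil ears, against 4.48, 5.89 and 6.71 TPM in LC-DTA vehicle ears, and rose there by 0.89 (limma adjusted p = 0.00151). It had 6.98, 3.50, 4.28 and 4.56 TPM in LC-DTR croton oil ears, against 3.43, 2.03 and 2.57 TPM in LC-DTR vehicle ears, and its rise there (0.65 ± 0.19, limma adjusted p = 0.0127) was lost without LC-DTR vehicle sample 2, at limma adjusted p = 0.0609. Gpr183 had 6.02, 8.04, 6.66 and 6.86 TPM in LC-DTA croton oil, 5.43, 7.57 and 9.53 TPM in LC-DTA vehicle, 3.96, 1.79, 3.07 and 2.42 TPM in LC-DTR croton oil and 3.31, 1.98 and 2.96 TPM in LC-DTR vehicle ears. Every LC-DTA ear lay above every LC-DTR ear. Gpr183 was higher in LC-DTA by 1.08 ± 0.19 after croton oil and by 1.17 ± 0.21 under vehicle (limma adjusted p = 0.000334 and 0.00227), and croton oil did not call it in either genotype.

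LXR receptors and targets were called in 1 direction only. Of the 8 that passed the filter, of 10, 6 fell after croton oil in LC-DTA and 3 in LC-DTR and 0 rose by limma (0 at an unadjusted p under 0.05), where 34.5% and 29.5% of all genes fell, with medians of -0.52 in LC-DTA and -0.24 in LC-DTR. Abca1, the exporter of cellular cholesterol, had 15.9, 18.9, 14.7 and 18.6 TPM in LC-DTA croton oil ears, against 33.0, 43.5 and 34.6 TPM in LC-DTA vehicle ears. It had 25.4, 28.8, 26.6 and 22.7 TPM in LC-DTR croton oil ears, against 38.1, 32.2 and 26.6 TPM in LC-DTR vehicle ears. Abca1 fell in LC-DTA (-1.08 ± 0.13, limma adjusted p = 1.66e-05), was not called in LC-DTR, and its responses differed by -0.78 ± 0.18 (limma adjusted p = 0.00989). Mylip, which encodes a ubiquitin ligase, fell in both genotypes (-1.02 ± 0.11 in LC-DTA and -0.53 in LC-DTR, limma adjusted p = 6.86e-06 and 0.0013). Apoe, which encodes apolipoprotein E, fell in both as well, at 2388 ± 277 TPM in LC-DTA croton oil ears against 4001 ± 145 TPM in LC-DTA vehicle ears (SD, n = 4 and 3; limma adjusted p = 2.23e-05), and at 2696 ± 237 TPM in LC-DTR croton oil ears against 3983 ± 248 TPM in LC-DTR vehicle ears (limma adjusted p = 0.000293). Smpdl3a, a phosphodiesterase, fell in LC-DTA (-0.36, limma adjusted p = 0.000357).

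**Figure D4:**
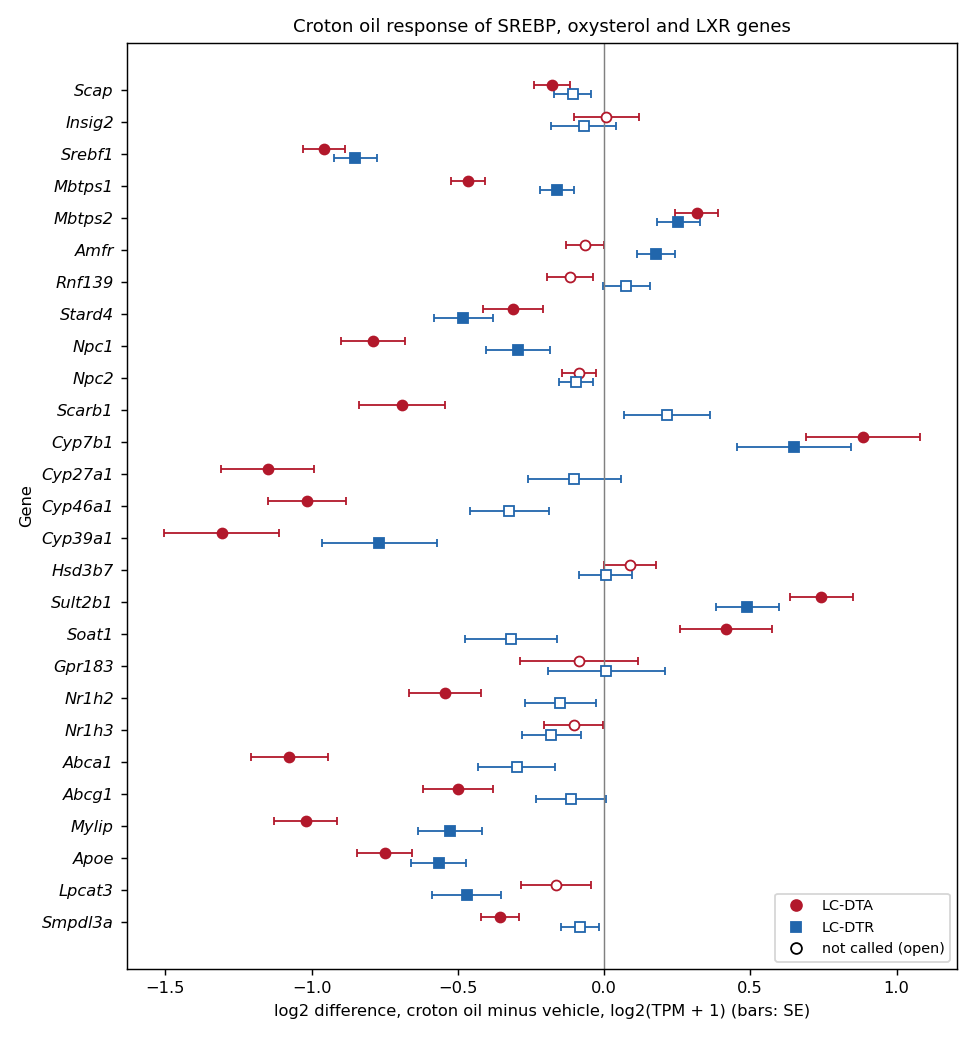
Log2 difference of croton oil against vehicle, on the log2(TPM + 1) scale, for genes of SREBP processing, sensing and uptake, of oxysterol metabolism and of LXR that passed the filter, with bars of 1 SE. Circles are LC-DTA, squares LC-DTR, and open symbols were not called by limma. All 8 LXR genes lie below 0 in both genotypes.

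Of 10 genes of fatty acid synthesis, which SREBP1 drives, 4 fell in LC-DTA, near the 34.5% of all genes that fell there. In LC-DTR 7 fell, where 29.5% of all genes did, and 0 rose by limma in either (0 at an unadjusted p under 0.05). Scd2, a stearoyl-CoA desaturase, had 77.5, 94.2, 73.6 and 82.7 TPM in LC-DTA croton oil ears, against 117, 120.1 and 132 TPM in LC-DTA vehicle ears. It had 33.7, 29.5, 41.1 and 27.6 TPM in LC-DTR croton oil ears, against 106, 89.9 and 112 TPM in LC-DTR vehicle ears. Scd2 fell in both genotypes (-0.58 in LC-DTA and -1.62 ± 0.12 in LC-DTR, limma adjusted p = 0.00118 and 1.11e-06), and its responses differed by 1.04 (limma adjusted p = 0.00167). Acaca and Acss2, which make malonyl-CoA and acetyl-CoA, fell in LC-DTR (-0.54 and -0.98, limma adjusted p = 8.64e-05 and 0.000308) and were not called in LC-DTA. Interferon-stimulated genes were listed because Ch25h is known as one. Of 10, 3 rose in LC-DTA, where 24.2% of all genes rose, among them Oasl2 and Mx1 (1.15 and 0.64, limma adjusted p = 0.0097 and 0.00762), and Mx1 was lost without LC-DTA vehicle sample 1, at limma adjusted p = 0.0514. In LC-DTR limma called 0 of the 10, with 0 at an unadjusted p under 0.05. The responses of 0 of the 10 differed between the genotypes by limma (2 at an unadjusted p under 0.05), and 7 were higher in LC-DTA after croton oil, where 34.3% of all genes were.

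By the median over pairs, the 7 sterol genes varied together more than they varied with Ch25h. Over the 14 samples, the correlations of log2 values among the 7 ran from 0.30 to 0.97 over 21 pairs, with a median of 0.77. Those of Ch25h with the 7 ran from -0.48 to 0.57, with a median of 0.13. The samples fall into the 4 groups, whose means are part of these correlations. With the group means taken out, the pairs among the 7 had correlations of -0.13 to 0.91 with a median of 0.65, and those of Ch25h with the 7 had -0.64 to 0.02 with a median of -0.27. Srebf2 then varied little with the other sterol genes, at -0.13 (with Cyp51) to 0.24 (with Insig1). These values describe 14 libraries whose TPM share a total.

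The summed TPM of the 7 sterol genes was 1543, 1598, 1434 and 1528 in LC-DTA croton oil ears, against 1512, 1226 and 1559 in LC-DTA vehicle ears. It was 932, 1009 and 1096 in LC-DTR croton oil samples 1, 2 and 3 and 953 in sample 4, against 1241, 1209 and 1308 in LC-DTR vehicle ears. Within LC-DTR croton oil, the ears with the least Ch25h, samples 2 and 3, had the largest sums. Sample 2 was the highest of its group in 0 of the 7 genes and the lowest in 2. Its Hmgcs1, the most abundant of the 7, was at 394 TPM, against 312 and 334 TPM in samples 1 and 4. Sample 3 was the highest of its group in 7 of the 7 genes and in 28.4% of all genes tested.

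**Figure D5:**
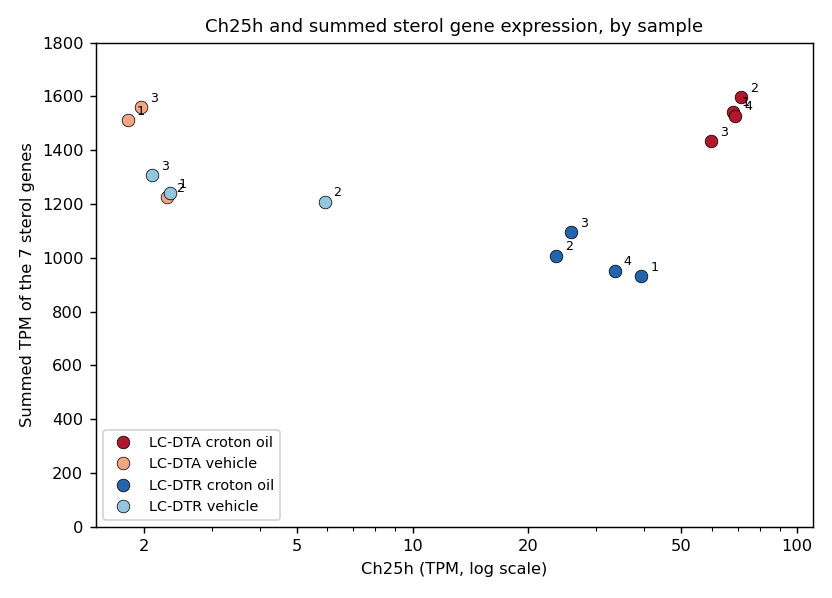
TPM of Ch25h, on a log axis, against the summed TPM of the 7 sterol genes in each of the 14 samples, marked by group and labelled by sample number. LC-DTA croton oil ears have high Ch25h and sums of 1434 to 1598 TPM, LC-DTR croton oil ears have high Ch25h and sums of 932 to 1096 TPM, and vehicle ears lie at 5.90 TPM of Ch25h or below.

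The genes most like Ch25h over the 14 samples, by the correlation of log2 values among 11561 genes, were Mrrf (0.986), Krt6a (0.982), Bnc1 (0.981), Urah (0.979), Bcl2l15 (0.978) and Ccdc71l (0.978). Krt6a, a keratin of wounded epidermis, had 726, 749, 713 and 589 TPM in LC-DTA croton oil, 136, 127 and 158 TPM in LC-DTA vehicle, 543, 437, 434 and 518 TPM in LC-DTR croton oil and 126, 154 and 93.1 TPM in LC-DTR vehicle ears. Like Ch25h, it was highest in LC-DTA croton oil and lower in LC-DTR croton oil samples 2 and 3 than in samples 1 and 4. With group means taken out, other genes were most like Ch25h: Utp14a (0.896), Map2k3os (0.874), Kif17 (0.862), Otud7a (0.850), Sh2d5 (0.849) and Krt16 (0.846). The genes most like the mean of the 7 sterol genes were Ap2m1 (0.967), Copz1 (0.960), Col12a1 (0.954), Cox16 (0.953), Pmp2 (0.947) and Fdps (0.946). With group means taken out they were Hmces (0.868), Acat2 (0.855), Vcp (0.848), Mien1 (0.839), Fdps (0.838) and Mvd (0.831), so that 3 of 6 were enzymes of the pathway. Of 11561 genes, Dhcr7 ranked 10900 in likeness to the 7 over all samples (r = -0.72).

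Cell type markers moved with the same groups, and their part in these results was not tested. Their counts stand beside 24.2% of all genes that rose and 34.5% that fell in LC-DTA, and 22.1% and 29.5% in LC-DTR. The 6 epidermal markers summed to 22621 to 25468 TPM in LC-DTA croton oil, 25742 to 26952 in LC-DTA vehicle, 17162 to 22319.5 in LC-DTR croton oil and 28423 to 36128 in LC-DTR vehicle ears. This sum was lowest in LC-DTR croton oil, as were those of the 7 sterol genes, and it was highest in LC-DTR vehicle, as theirs were not. Of the 6, 3 rose and 1 fell in LC-DTA, and 2 rose and 4 fell in LC-DTR. The log2 differences of the 6 ran from -0.51 to 1.23 in LC-DTA (median 0.10) and from -1.29 to 1.12 in LC-DTR (median -0.54). Krt5 of basal keratinocytes was the lowest of the 6 in each genotype and fell in both (-0.51 in LC-DTA and -1.29 in LC-DTR). Its call in LC-DTA was lost under quantile normalization, at limma adjusted p = 0.0626. The 8 sebaceous gland markers summed to 1993 to 2988 TPM in LC-DTA croton oil, 2093 to 2664 in LC-DTA vehicle, 1883 to 2344 in LC-DTR croton oil and 2277 to 2478 in LC-DTR vehicle ears, and overlapped between croton oil and vehicle in both genotypes. Of the 8, 2 fell in LC-DTA, and 2 rose and 1 fell in LC-DTR.

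The 6 neutrophil markers summed to 440.5 to 668 TPM in LC-DTA croton oil and 261 to 769 TPM in LC-DTR croton oil ears, against 25.7 to 68.7 TPM in the vehicle ears of both genotypes, and all 6 rose in both. The neutrophil sums of the croton oil groups overlapped. Of the 6, limma called 1 higher and 1 lower in LC-DTA after croton oil, where 34.3% and 18% of all genes were. The 10 macrophage and monocyte markers summed to 573 to 701 TPM in LC-DTA croton oil, 592 to 749 in LC-DTA vehicle, 346 to 462 in LC-DTR croton oil and 279 to 463 in LC-DTR vehicle ears. Every LC-DTA ear lay above every LC-DTR ear in this sum. Of the 10, 4 rose and 4 fell in LC-DTA, and 2 rose in LC-DTR. Their log2 differences ran from -0.91 to 3.38 in LC-DTA (median 0.008) and from -0.31 to 0.81 in LC-DTR (median 0.04). Of these genes, Ccr2, a receptor of inflammatory monocytes, had 30.5, 42.9, 40.1 and 38.0 TPM in LC-DTA croton oil ears, against 5.47, 5.24 and 6.51 TPM in LC-DTA vehicle ears. It had 8.30, 4.54, 5.504 and 7.40 TPM in LC-DTR croton oil ears, against 8.87, 5.58 and 7.31 TPM in LC-DTR vehicle ears. Ccr2 rose in LC-DTA (2.52 ± 0.18, limma adjusted p = 7.01e-07) and was not called in LC-DTR. Fibroblast markers, 6 of 6 higher in LC-DTA under vehicle, where 19.1% of all genes were, summed to 3614 to 4846 TPM in LC-DTA croton oil, 5538 to 6737 in LC-DTA vehicle, 1905 to 2737 in LC-DTR croton oil and 1783 to 3789.8 in LC-DTR vehicle ears. Of the 6, 3 fell in LC-DTA after croton oil, and 1 rose and 1 fell in LC-DTR. Of 5 endothelial markers 3 fell in LC-DTA, and 2 rose and 1 fell in LC-DTR. No marker was at 0 in any ear.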

How the data were processed

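The samples were 14 whole ear mRNA libraries, grouped by the labels. Per the labels' protocols, a Qiagen RNeasy kit gave the RNA, and the Illumina TruSeq Stranded mRNA kit the libraries. Per the submitters' processing notes, cutadapt, HISAT2, Subread and featureCounts were used with the mouse build mm10. The annotation, strand setting and TPM formula were not given in the sources used here. The authors deposited TPM, summing to 1e+06 in each sample. TPM keep no depth, so no counting error is given, and an abundant gene lowers all others. Of 24062 rows, 27 carried a date for a name. These rows, 0.124 to 0.145% of a sample's TPM, were dropped, which left 24035.

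The members, the gene lists and the rules for naming genes were chosen with earlier results of these data known. Named genes were all sterol synthesis enzymes and genes of SREBP processing where needed, up to 4 genes of each other list with the lowest p over the croton oil comparisons, and the 6 genes most like a profile among those averaging 5 TPM or more in 1 group, passing over Gm and Rik names. Counts of a list cover all its genes, and the values of some genes are not reported here. Deposited values were transformed to log2(TPM + 1), a scale that understates the change of low genes. Genes with at least 1 TPM in at least 3 samples were fitted with limma 3.58.1 (R 4.3.3) in 1 model of 4 group means with a mean-variance trend, which had been tested on simulated data. The 5 comparisons were adjusted by the Benjamini-Hochberg method over all 14693 genes, two-sided, and called at an adjusted p under 0.05. With samples not stated to be separate animals, p-values measure only the spread between these samples. Python 3.11.15, pandas 2.3.3 and matplotlib 3.10.9 served for tables and figures. Positions come from GENCODE M21 (GRCm38), not stated to be the annotation used by the authors, and Adgre1 was listed as Emr1.

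Replicate numbers recur in each group. The deviations of same-numbered samples from their group means correlated at -0.291 to 0.126, so the numbers do not pair the samples. As alternatives, the pseudocount was set to 0.1 or 5, the filter was dropped or raised to 5 TPM, values were rescaled by the median ratio or by quantiles, limma was run without its trend, with robust variance, with a replicate block or on the compared groups alone, and samples were left out: each in turn, LC-DTR croton oil 2 and 3 together, and LC-DTA croton oil 3 and 4 together, since their label numbers are distant from those of the other 2 in that group.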

Additional observations from a re-analysis of the deposited data

Results flagged for a closer look

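Within groups of 4 croton oil ears, 66 sets of values of pathway genes were examined for a sample far from the rest of its group by Dixon's test, which chance passes in about 1 in 20, and 2 were found. In LC-DTR croton oil, the highest Mvd value was 60.0 TPM and the lowest Mbtps1 value was 76.4 TPM.

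Among the 8 genes and the listed genes of sterol synthesis, SREBP processing, sensing and uptake, 12 were singled out for their croton oil responses in the 2 genotypes. For Fdft1 every croton oil ear lay above every vehicle ear in LC-DTA and below it in LC-DTR, a difference of the responses of 0.36 on the log2 scale. It was not tested on samples other than those by which the gene had been chosen. In LC-DTR the nearest ears were at 116 TPM with croton oil and 117 TPM with vehicle. The values of Fdft1 are uncertain because the gene overlaps Ctsb. Over all genes tested, 3.21% had such opposite orders without overlap. For the other 11 the difference itself passed limma's test over all genes, as it did for 23.1% of all genes. It was positive, LC-DTA minus LC-DTR, for 8 enzymes of sterol synthesis: Nsdhl at 0.86, Acat2 at 0.76, Fdps at 0.64, Mvk at 0.62, Msmo1 at 0.59, Mvd at 0.54, Ebp at 0.46 and Lss at 0.31. It was negative for Scarb1 at -0.91, Npc1 at -0.50 and Mbtps1 at -0.30. The call of Npc1 was kept under 14 of 25 alternatives. It was lost without LC-DTA vehicle sample 2, LC-DTR vehicle sample 2 or 3, LC-DTR croton oil sample 2 or LC-DTA croton oil sample 1, 2 or 3, at limma adjusted p of 0.0509 to 0.1005. That of Mbtps1 was kept under 22 of 25, and was lost without LC-DTA vehicle sample 2, at limma adjusted p = 0.0578.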

How the results depend on the processing

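The log2 differences of Ch25h kept their sign under every alternative run. In LC-DTR its response was 2.08 with a pseudocount of 5, and in LC-DTA it was 4.99 with a pseudocount of 0.1 and 3.36 with one of 5. Leaving out each sample in turn gave 4.44 to 4.55 in LC-DTA, 2.69 to 3.27 in LC-DTR, 1.02 to 1.26 between the genotypes after croton oil, -0.67 to -0.0905 under vehicle and 1.23 to 1.80 for the difference of the responses. The median of the 7 sterol genes ranged from 0.0623 to 0.27 in LC-DTA, -0.14 to -0.10 in LC-DTR, 0.55 to 0.60 after croton oil, 0.13 to 0.32 under vehicle and 0.31 to 0.52 for the difference of the responses. After median ratio rescaling the median under vehicle was 0.0794, where that of all genes moved by -0.11.

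Of the 16 other enzymes, 1 rose in LC-DTR with no filter, after quantile normalization, with the replicate block and without LC-DTR croton oil samples 2 and 3, against 2 as reported. Between the genotypes 1 was lower under vehicle with the replicate block and with only the compared groups, against 2, and 2 were lower after croton oil with median ratio rescaling, against 1. The responses of 5 were higher with no filter, without the trend and with the replicate block, against 8. Leaving out each sample gave 1 to 3 higher in LC-DTR, 0 to 2 higher and 1 to 2 lower under vehicle, and 4 to 8 higher and 0 to 1 lower for the difference of the responses. Over all genes it gave 1780 to 3775 calls under vehicle, lowest without LC-DTR vehicle sample 2, and 2220 to 3575 for the difference of the responses, lowest without LC-DTA vehicle sample 2. The cause was not tested, beyond the fewer samples each such fit holds.

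Without LC-DTR croton oil samples 2 and 3, the median of the 7 sterol genes was -0.15 in LC-DTR, 0.61 between the genotypes after croton oil and 0.51 for the difference of the responses. Of 198 calls of genes of the lists, 141 were kept in all of the up to 26 alternatives that gave a value, 57 were lost in some and 1 of these reversed: the difference of the responses of Krt10, an epidermal keratin, was -0.0389 after quantile normalization (limma adjusted p = 0.816). The replicate block changed no other count of the enzymes by over 1.5 times, and only the compared groups gives no value for the difference of the responses.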
